A study of Mus musculus with 15 samples.

Results

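The 9 genes described here carry the transcriptional programme of muscle wasting: the ubiquitin ligase genes Trim63, Fbxo32, Fbxo30 and Fbxo21, the transcription factor genes Foxo1 and Foxo3, and the stress-response genes Gadd45a, Ddit4 and Eda2r. They were chosen by name from 55536 genes listed in the deposited tables, and all 9 were read in all 15 mice and passed the filter on low values in every comparison. No measured value entered the choice rule, although the names were picked with earlier results of these data known.

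Muscle fibres lose protein through the proteasome and through autophagy, and both routes are set in part by transcription. When insulin or IGF1 signalling is strong, the kinase AKT phosphorylates FoxO proteins and keeps them out of the nucleus. When that signal weakens, for example in fasting, denervation or illness, FoxO proteins enter the nucleus and switch on ligase and autophagy genes. Glucocorticoids, the ATF4 stress pathway and noncanonical NF-kB signalling add their own inputs to the same genes.

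The muscle came from male mice aged 2 months, and RNA was read by sequencing of poly(A) RNA with a directional library kit. The 5 control mice were wild type. The 5 mice labelled PdgfrB Knock Out, called knockout here, were designed to lose Pdgfrb, the gene of platelet-derived growth factor receptor beta, in myogenin-expressing cells. The 5 mice labelled PdgfrB D489V were designed to carry a constitutively active form of the receptor in the same cells. Myogenin marks differentiating muscle cells and their fibres, so the alleles were directed to that lineage and not to the vessel wall cells in which the receptor gene is usually highest. The muscle, strain, litter and dissection day are not given, and no label says whether controls carried a Cre transgene. Each sample is labelled as a separate mouse of its group only by its number, so p-values measure the spread between these samples.

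Sums of normalized counts were 29815559 to 36489777 per library. Muscle fibre markers were high in every library, with a summed level over 10 genes of 6455164 to 9387610. Pdgfrb, the targeted gene, was at 1673 to 1848 in controls, 958 to 1628 in knockout and 820 to 1062 in D489V, so every mutant library lay below every control. Such separation was shown by 2.24% of genes for knockout and 2.16% for D489V. The log2 difference from control was -0.45 in knockout, which did not pass, and -0.96 in D489V (limma adjusted p 0.294 and 0.00168). Knockout was above D489V by 0.51 (limma adjusted p 0.0258), lost without knockout 1, D489V 1 or D489V 2 (0.0543, 0.0685 and 0.0669). Xist, the X-inactivation RNA of female cells, was read at 3165 in knockout 3 although that mouse is labelled male and at 101 or less in all others. Values without knockout 3 are given beside the results for Fbxo32, Foxo3 and Eda2r. Control 5 and knockout 4 held the highest summed levels of 14 lymphocyte and lymph node markers, at 12445 and 11458 against 1194 to 5952 in the other libraries. The summed level of 10 slow fibre markers ran from 54407 to 349268 and was highest in controls 4 and 5, knockout 3 to 5 and D489V 3, all at 217745 or more, with the other mice at 133042 or less. The part of cell composition in the results was not tested, and in whole muscle fewer cells of a type and less RNA per cell cannot be told apart.

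Promoter sequences were taken for 8 of the 9 genes, all but Fbxo32, from RefSeq on GRCm38.p6, as the 250 bases before each start. A motif search on both strands used GTAAACA, the core bound by FoxO proteins, which is found in 3.17% of 32851 mouse promoters of that length. The core was present in 2 of the 8 promoters, those of Trim63 (plus strand, chr4:134314870-134315119) and Eda2r (minus strand, chrX:97377210-97377459). Both are shown 5′ to 3′ with the motif matches in capitals.
Trim63: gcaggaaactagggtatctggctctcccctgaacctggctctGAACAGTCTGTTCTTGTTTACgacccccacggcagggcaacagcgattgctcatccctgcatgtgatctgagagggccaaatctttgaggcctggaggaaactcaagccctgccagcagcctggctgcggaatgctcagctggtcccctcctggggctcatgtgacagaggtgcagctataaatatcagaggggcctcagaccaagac
Eda2r: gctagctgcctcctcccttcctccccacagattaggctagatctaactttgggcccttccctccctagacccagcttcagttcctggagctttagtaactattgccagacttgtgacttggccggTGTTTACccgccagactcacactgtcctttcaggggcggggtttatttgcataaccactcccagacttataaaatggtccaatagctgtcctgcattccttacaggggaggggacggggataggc
In Trim63 the capitals hold 2 matches side by side without overlap. The first, GAACAGTCTGTTC, at -208 to -196 from the start, fits the paired half-sites bound by the glucocorticoid receptor, GNACA and TGTNC with 3 bases between them, found in 0.387% of promoters. The second is the FoxO core read on the opposite strand, TGTTTAC, at -194 to -188, and with the preceding T it also fits the longer GTAAACAA, found in 1.07% of promoters. In Eda2r the FoxO core lay at -125 to -119. The hypoxia motif ACGTG, present in 16.6% of promoters, was found at -187 to -183 in Ddit4, and TGATGNAA, an ATF4 motif in 3.45% of promoters, was found in none of the 8. These are letter matches in a short window and not measured binding.

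**Figure D1:**
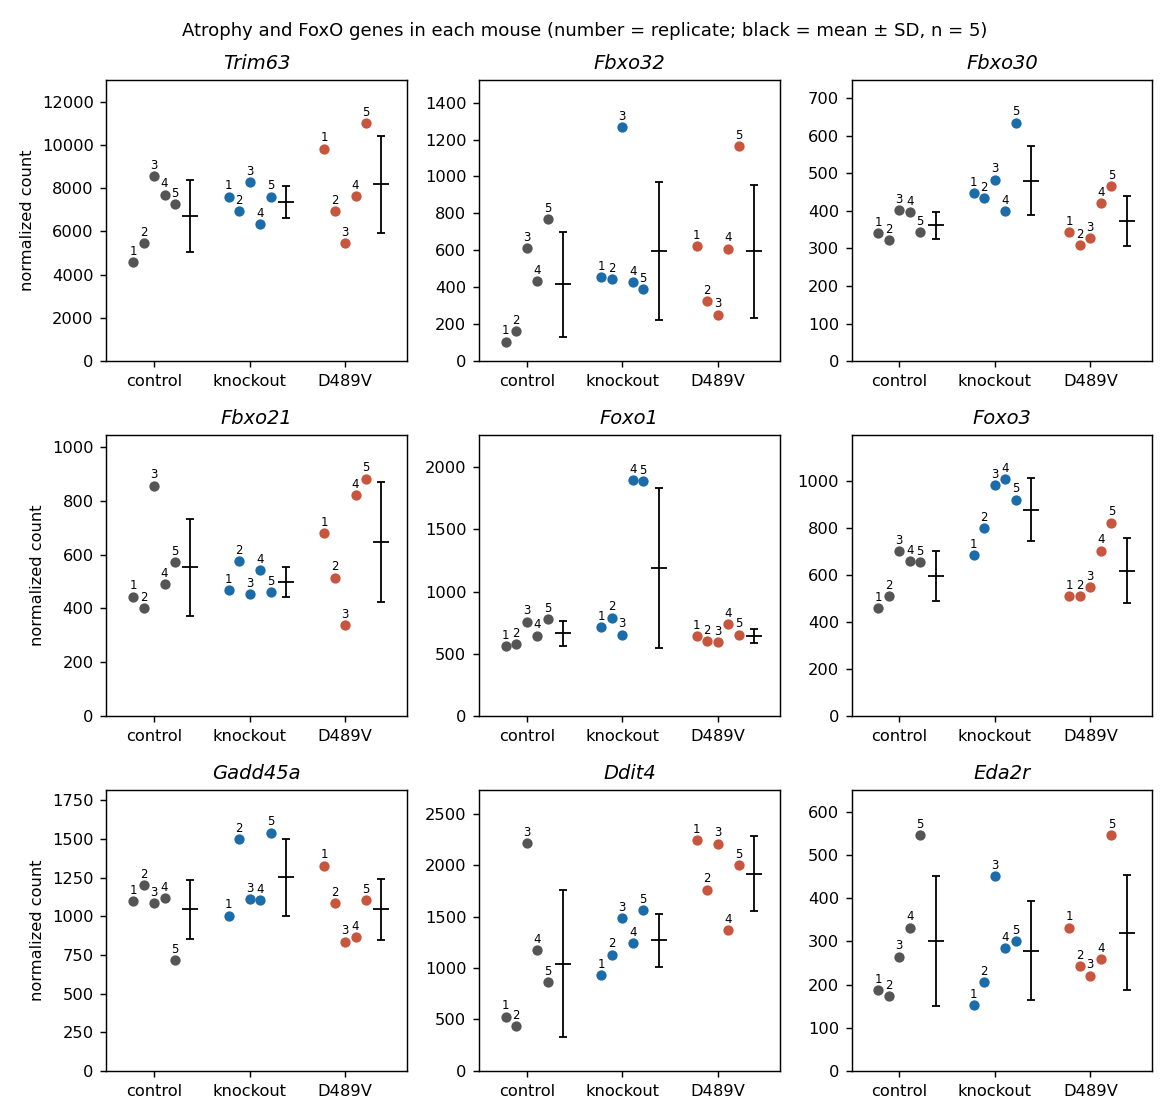
Normalized counts of the 9 genes (y axis, linear from 0) in each of the 15 mice, numbered by replicate, with black bars for the mean and SD of each group of 5. Groups overlap for every gene; Foxo1 stands at about the same level in 13 mice and at 1899 and 1890 in knockout 4 and 5, and Fbxo32 runs from 106 in control 1 to 1267 in knockout 3.

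Levels per kilobase of merged exons differed widely between the genes. Trim63 averaged 2609 normalized counts per kilobase over the 15 mice, 3.24 times the next gene, Ddit4, at 804. Gadd45a followed at 632 and was 6.19 times above Fbxo21 at 102. Below that step lay Foxo1 at 96.2, Foxo3 at 92.2, Fbxo30 at 77.9, Fbxo32 at 76.8 and Eda2r at 50.9. Only the steps from Trim63 to Ddit4 and from Gadd45a to Fbxo21 separated every mouse. All other neighbours in this order had overlapping ranges over the mice, for example Foxo1 above Foxo3 in 6 of 15.

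Trim63 (ENSMUSG00000028834, chromosome 4, 134315120 to 134329629) encodes MuRF1, a RING-type ubiquitin ligase of the sarcomere that marks thick filament proteins for the proteasome. Its normalized counts were 4574, 5472, 8564, 7706 and 7250 in controls, 7611, 6957, 8279, 6322 and 7608 in knockout, and 9835, 6945, 5464, 7634 and 10999 in D489V. Group means were 6713 ± 1644, 7355 ± 743 and 8175 ± 2230 (SD, n = 5 each). Control 1 was the lowest and D489V 5 the highest of all mice, and the knockout mice all lay inside the control range. Relative to control the log2 difference was 0.16 (SE 0.163) in knockout and 0.28 (SE 0.213) in D489V, and knockout differed from D489V by -0.11 (SE 0.168), none past the threshold (limma adjusted p 0.619, 0.719 and 0.649).

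Fbxo32 (ENSMUSG00000022358, chromosome 15, 58175879 to 58214932) encodes atrogin-1, the F-box subunit that brings substrates to an SCF ubiquitin ligase in muscle. It held 106, 164, 614, 432 and 769 normalized counts in controls, 455, 444, 1267, 428 and 388 in knockout, and 624, 324, 252, 609 and 1163 in D489V. The lowest and highest mice differed 12.0-fold, from control 1 to knockout 3. Controls 1 and 2 were the lowest of the 15, and knockout 3 stood far above the other knockout mice, which lay close together between 388 and 455. Means were 417 ± 284, 596 ± 376 and 594 ± 359 (SD, n = 5 each). The log2 difference from control was 0.71 in knockout, with a 95% interval from -0.44 to 1.87, and 0.67 in D489V, from -0.56 to 1.90. Neither passed (limma adjusted p 0.503 and 0.750), and these intervals leave room for changes beyond 2-fold. Single mice moved both values: without control 1 they were 0.31 and 0.27, and without knockout 3 the knockout difference was 0.40. Knockout differed from D489V by 0.05 with knockout 3 and by -0.27 without it (limma adjusted p 0.946 and 0.625).

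Among protein-coding genes with a mean of 50 or more, this spread was unusual. Only 1.92% of 11559 such genes ranged as widely over the 15 mice as Fbxo32, counted as the highest over the lowest value after adding 1. Ddit4 ranged 5.11-fold over the 15 mice, a spread reached by 4.96% of genes, and Eda2r 3.58-fold, reached by 9.21%. The middle gene ranged 1.83-fold. Within the 5 wild-type controls alone, Fbxo32 ranged 7.20-fold (2.02% of genes as wide), Ddit4 5.04-fold (2.74%) and Eda2r 3.13-fold (4.99%), while Fbxo30 ranged 1.25-fold (82.3%).

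Fbxo30 (ENSMUSG00000047648, chromosome 10, 11281330 to 11298052) encodes MUSA1, an F-box ligase subunit that BMP signalling holds down in muscle. It held 341, 323, 403, 397 and 344 normalized counts in controls, 448, 435, 483, 400 and 635 in knockout, and 344, 308, 327, 420 and 466 in D489V. In 4 of 5 knockout mice it was above every control, with the exception of knockout 4, and the D489V mice spread around the controls. Means were 362 ± 36 in controls, 480 ± 91.5 in knockout and 373 ± 67.2 in D489V (SD, n = 5 each). The log2 difference was 0.40 (SE 0.132) for knockout against control, with an exact permutation p of 0.0159 and a limma adjusted p of 0.303. It was 0.03 (SE 0.130) for D489V against control (limma adjusted p 0.955) and 0.36 (SE 0.149) for knockout against D489V (limma adjusted p 0.0968). The last of these came under the threshold without D489V 5 (0.0488).

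Fbxo21 (ENSMUSG00000032898, chromosome 5, 117976730 to 118010201) encodes SMART, another F-box subunit under FoxO control. It held 444, 401, 856, 490 and 572 normalized counts in controls, 467, 575, 453, 541 and 459 in knockout, and 679, 514, 339, 820 and 882 in D489V. The knockout mice were closely grouped, whereas D489V held both the lowest and the highest of the 15 mice. Means were 553 ± 181, 499 ± 55.4 and 647 ± 223 (SD, n = 5 each). Relative to control its log2 difference was -0.10 in knockout and 0.20 in D489V (limma adjusted p 0.795 and 0.852), and knockout differed from D489V by -0.30 (limma adjusted p 0.343). Without D489V 3 the last difference was -0.51 with an adjusted p of 0.0488.

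Foxo1 (ENSMUSG00000044167, chromosome 3, 52268336 to 52353221) encodes one of the FoxO factors that activate the ligase genes. It held 562, 578, 759, 647 and 776 normalized counts in controls, 717, 791, 654, 1899 and 1890 in knockout, and 641, 603, 593, 738 and 654 in D489V. Knockout 4 and 5 stood apart from the 13 other mice, all of which lay between 562 and 791. Means were 664 ± 99.6 in controls, 1190 ± 645 in knockout and 646 ± 57.5 in D489V (SD, n = 5 each). The log2 difference was 0.68 (SE 0.303) for knockout against control (limma adjusted p 0.323) and 0.72 (SE 0.289) for knockout against D489V (limma adjusted p 0.0921), and it was -0.03 (SE 0.114) for D489V against control (limma adjusted p 0.950). Without control 5 and knockout 3, 4 and 5 the difference from control was 0.25, and without knockout 3, 4 and 5 the difference from D489V was 0.23. Knockout 4 and 5 held slow fibre sums of 281643 and 238908, and knockout 4 the lymphocyte sum of 11458 given above. Among the other mice with high slow fibre sums, Foxo1 was 654 in knockout 3, 647 in control 4, 776 in control 5 and 593 in D489V 3. The part of fibre type or lymphocyte RNA in the Foxo1 values was not tested.

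Foxo3 (ENSMUSG00000048756, chromosome 10, 42181841 to 42276755) encodes the FoxO factor best known for driving autophagy genes in muscle. It held 458, 510, 703, 658 and 655 normalized counts in controls, 684, 799, 981, 1007 and 921 in knockout, and 509, 509, 548, 704 and 823 in D489V. In 4 of 5 knockout mice the level exceeded every control, the exception being knockout 1, and 3 of 5 exceeded every D489V mouse. Means were 597 ± 106, 878 ± 135 and 619 ± 140 (SD, n = 5 each). Foxo3 RNA rose in knockout relative to D489V by 0.52 on the log2 scale (SE 0.155, limma adjusted p 0.0353, exact permutation p 0.0397), a 1.43-fold difference with a 95% interval of 0.18 to 0.86 on the log2 scale. Against control the knockout difference was similar in size, 0.56 (SE 0.148, exact permutation p 0.0159), but did not pass over all genes (limma adjusted p 0.273), and D489V differed from control by 0.04 (SE 0.166, limma adjusted p 0.953).

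The Foxo3 call did not hold under every setting. It was lost on leaving out knockout 3 (limma adjusted p 0.0725), knockout 4 (0.0723), knockout 5 (0.0697), D489V 1 (0.0918), D489V 2 (0.0897) or D489V 3 (0.0752), and over 23 alternatives the adjusted p ran from 0.0137 to 0.369. The difference fell to 0.28 without knockout 3, 4 and 5, the libraries with high slow fibre sums in that group. Knockout 1 and 2, which remained, had the least Foxo3 of that group, at 684 and 799.

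Gadd45a (ENSMUSG00000036390, chromosome 6, 67035096 to 67037457) encodes a small stress protein that ATF4 induces in wasting muscle and that remodels muscle nuclei. It held 1101, 1204, 1085, 1118 and 717 normalized counts in controls, 1005, 1502, 1110, 1107 and 1542 in knockout, and 1328, 1088, 837, 868 and 1103 in D489V. Control 5 was well below the other controls, and knockout 2 and 5 were the highest of the 15 mice. Means were 1045 ± 189, 1253 ± 249 and 1045 ± 200 (SD, n = 5 each). The log2 difference was 0.26 (SE 0.164) for knockout against control and 0.26 (SE 0.155) for knockout against D489V (limma adjusted p 0.431 and 0.239). D489V and control had nearly equal means, with an interval of -0.35 to 0.36 for their log2 difference.

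Ddit4 (ENSMUSG00000020108, chromosome 10, 59949669 to 59951834) encodes REDD1, which glucocorticoids and hypoxia induce and which restrains the growth kinase mTORC1. It held 528, 439, 2215, 1175 and 862 normalized counts in controls, 934, 1131, 1487, 1240 and 1566 in knockout, and 2245, 1764, 2211, 1366 and 2005 in D489V. The controls spanned nearly the whole range of the 15 mice, while 4 of 5 D489V mice lay above every knockout mouse, the exception being D489V 4. Means were 1044 ± 717, 1272 ± 259 and 1918 ± 364 (SD, n = 5 each). Ddit4 RNA in knockout fell by 0.59 on the log2 scale relative to D489V (SE 0.164, limma adjusted p 0.0270, exact permutation p 0.0238), so that it was 1.51-fold higher in D489V. Against control the D489V difference was larger, 1.10 (SE 0.368), with all 5 mice above the control median, but it did not pass over all genes (limma adjusted p 0.353, exact permutation p 0.0476). Without control 3, the highest control, it was 1.44 and did not pass either (limma adjusted p 0.0901). Knockout differed from control by 0.51 (SE 0.368, limma adjusted p 0.491).

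The Ddit4 call against D489V was lost on leaving out knockout 1 (limma adjusted p 0.0530), knockout 2 (0.0506), D489V 1 (0.0734), D489V 2 (0.0534) or D489V 3 (0.0604). It was also lost when the fit shared its spread with the controls (0.206), and it held without knockout 3, 4 and 5 at -0.88 (0.0422). Over 23 alternatives the adjusted p ran from 0.0095 to 0.206.

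Eda2r (ENSMUSG00000034457, chromosome X, 97333840 to 97377216) encodes the receptor for ectodysplasin A2, which signals through noncanonical NF-kB and has been tied to cachexia. It held 187, 174, 265, 332 and 546 normalized counts in controls, 152, 205, 451, 285 and 301 in knockout, and 332, 243, 221, 259 and 547 in D489V. Each group had a single high mouse, control 5, knockout 3 and D489V 5. Means were 301 ± 151, 279 ± 114 and 320 ± 133 (SD, n = 5 each), and the log2 differences were -0.07 and 0.14 from control and -0.21 between the mutant groups (limma adjusted p 0.924, 0.922 and 0.630). Without knockout 3 the knockout differences were -0.27 from control and -0.41 from D489V (limma adjusted p 0.731 and 0.312).

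Set side by side, no gene of the 9 passed in knockout against control, where 1 of 15234 genes tested (0.00656%) was called by limma. At an unadjusted p under 0.05 there were 3, Foxo3, Fbxo30 and Foxo1, beside 15.1% of all genes, and Foxo3 and Fbxo30 had the exact permutation p of 0.0159 given above. The difference was positive for 7 of 9, beside 51.5% of all genes, with a median of 0.40 on the log2 scale beside 0.01 over all genes. In D489V against control again 0 of 9 passed, with 9 of 15339 genes (0.0587%) called. Ddit4 was the only gene of the 9 with an unadjusted p under 0.05, beside 9.43% of all genes, and the difference was positive for 8 of 9, beside 50.4% of all genes, with a median of 0.14 beside 0.00. These 2 comparisons share their control mice. Controls 1 and 2 were the lowest 2 controls for every gene of the 9 except Gadd45a, Foxo3 and Fbxo30 included.

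In knockout against D489V, which share no mice, 2 of 9 genes passed, Foxo3 upward and Ddit4 downward, where 3181 of 15299 genes (20.8%) were called, 10.5% upward and 10.3% downward. The share among the 9 is near that background. With Foxo1 and Fbxo30, 4 had an unadjusted p under 0.05, beside 37.7% of all genes, and the median difference was 0.05. Groups did not separate fully for any of the 9 in any comparison, beside 2.24% of all genes in knockout against control, 2.16% in D489V against control and 13.9% here. In the same contrast 6 of 8 adipocyte, 9 of 10 Schwann cell, 8 of 8 endothelial and 5 of 5 erythrocyte markers tested were called lower in knockout. This stands beside the 10.3% of all genes called downward, and 0 of 10 muscle fibre markers passed. The summed level of the adipocyte list was 46033 to 110530 in knockout and 113325 to 170410 in D489V. Much of it was Car3, a carbonic anhydrase gene that muscle fibres also express, at 25812 to 98726 and 61962 to 83138. The other 7 adipocyte genes summed to 11804 to 20221 in knockout and 30187 to 99034 in D489V. The endothelial sum was 9840 to 15156 against 17528 to 21185. The Schwann cell sum was 6651 to 10406 against 13112 to 52396, and the erythrocyte sum 3175 to 8038 against 12462 to 22164. Adipoq was at 535 to 1118 in knockout and 1294 to 5106 in D489V, and of these 4 lists only Slc4a1, an erythrocyte gene, was listed at 0 in any mouse. The part of these markers in the Foxo3 and Ddit4 differences was not tested.

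**Figure D2:**
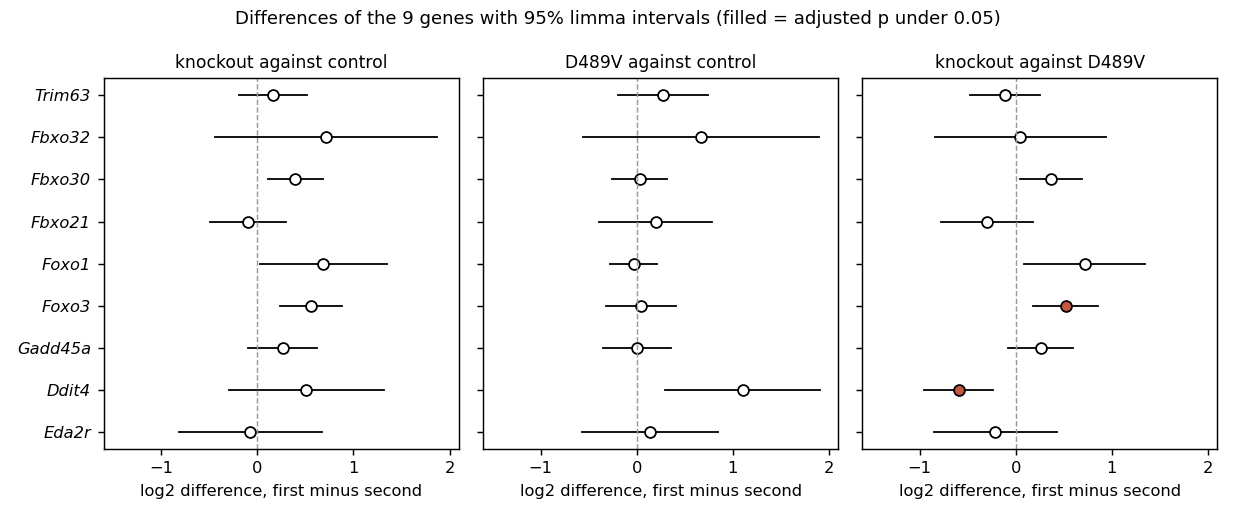
Log2 difference of each of the 9 genes (x axis, first group minus second) with its 95% limma interval in the 3 comparisons of 5 against 5 mice; filled points passed an adjusted p of 0.05. Only Foxo3 at 0.52 and Ddit4 at -0.59, both in knockout against D489V, are filled, and Fbxo32 has the widest intervals.

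The genes were next compared across the 15 mice, over all 36 pairs, with log2(value + 1) and permutation p-values adjusted over the 36 pairs. After adjustment, 5 pairs were correlated. Trim63 and Fbxo32, the ligases that define the atrophy programme, had the strongest relation, with Pearson r 0.87 (permutation p 3e-05, adjusted 0.00108) and Spearman rho 0.84 (permutation p 2.1e-04). It was 0.75 without control 1 and D489V 5, the mice farthest from the median of Trim63, and 0.87 with each value centred on its group mean. With group means removed, mice with more MuRF1 RNA thus tended to have more atrogin-1 RNA. This was less clear among the knockout mice. Knockout 3 had the most of both, while knockout 5, at 7608 for Trim63, had the least Fbxo32 of that group, 388.

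Fbxo32 and Eda2r followed, with r 0.76 (permutation p 0.00119, adjusted 0.0107), rho 0.69 (permutation p 0.00551), r 0.73 without control 1 and knockout 3, and 0.81 centred on the groups. For Trim63 and Fbxo21 r was 0.71 (permutation p 0.00318, adjusted 0.0229) and rho 0.67 (permutation p 0.00800, adjusted 0.0576), with 0.64 without control 1 and D489V 5 and 0.72 centred on the groups (adjusted p 0.0169). The knockout mice ran the other way: knockout 2 and 4 had the least Trim63 and the most Fbxo21 of that group, and knockout 3 the most Trim63 and the least Fbxo21. Groups of 5 are too small for a coefficient of their own, so the difference between groups was not tested.

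The FoxO genes formed the other relations. Fbxo30 and Foxo3 had r 0.80 (permutation p 2.3e-04, adjusted 0.00414) and rho 0.82 (permutation p 2.6e-04), with 0.81 without knockout 5 and D489V 2. Foxo1 and Foxo3 had r 0.68 (permutation p 9.3e-04, adjusted 0.0107) and rho 0.78 (permutation p 0.00116), with 0.62 without knockout 4 and 5. Centred on the group means these fell to 0.62 and 0.44 and did not pass (adjusted p 0.0640 and 0.208). The permutations of centred values made no allowance for the group means removed. Permutation p-values of centred values are therefore somewhat too small, and pairs near the threshold may not hold. By these p-values 6 of the 36 pairs passed with centred values, 3 of them among the 5 above. The other 3 were Foxo3 with Fbxo32 (r 0.73, adjusted p 0.0169), Foxo3 with Eda2r (0.74, adjusted p 0.0169) and Fbxo32 with Fbxo21 (0.65, adjusted p 0.0465), whose pooled r were 0.63, 0.42 and 0.59 (adjusted p 0.0560, 0.250 and 0.0774). The pooled relations of Foxo1 to Trim63 and Fbxo32 did not pass (r 0.05 and 0.11, adjusted p 0.923 and 0.787), and Gadd45a was in none of these pairs, pooled or centred. The number of pooled pairs was 9 without control 5 and 3 without D489V 5.

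**Figure D3:**
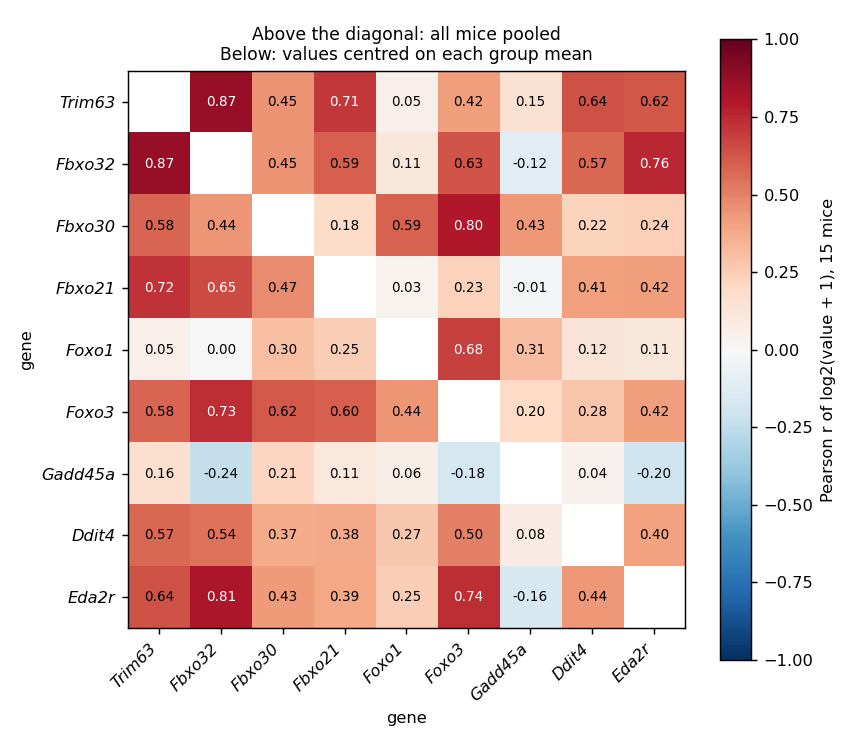
Pearson r of log2(value + 1) for each pair of the 9 genes over 15 mice, from -1 (blue) to 1 (red), pooled above the diagonal and centred on group means below it. Trim63 and Fbxo32 stand at 0.87 on both sides, and the row of Gadd45a is pale throughout.

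Over 11559 protein-coding genes with a mean of 50 or more, the genes whose pattern was most like each of the 9 were then listed by Pearson r over the 15 mice, as a description without a test. Fbxo32 was closest to Klhl38 (r 0.95, rho 0.93), a Kelch-family gene that lies on the same chromosome at 58314573 to 58324169, and then to Ezh1, a histone methyltransferase gene (r 0.935). Klhl38 held 28, 62, 145, 102 and 119 normalized counts in controls, 91, 76, 246, 94 and 96 in knockout, and 118, 73, 52, 112 and 159 in D489V. As for Fbxo32, control 1 was lowest and knockout 3 highest. Trim63 was closest to Pcmtd2 (r 0.94) and to Zfand5, a ubiquitin-binding zinc finger gene (r 0.94), with r of 0.89 and 0.88 without control 1 and D489V 5.

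Ddit4 was closest to 2 other inducible genes, the clock gene Per1 (r 0.86, rho 0.70) and the kinase gene Sik1 (r 0.86, rho 0.80). Per1 held 548, 501, 2738, 2551 and 1180 normalized counts in controls, 2250, 2428, 3249, 2353 and 1954 in knockout, and 2586, 2885, 3338, 2521 and 2070 in D489V. Controls 1 and 2 were thus the lowest mice for Per1 and for Ddit4, and r was 0.57 without these mice, the farthest from the Ddit4 median. Every mutant mouse had more Per1 than controls 1, 2 and 5.

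Foxo1 was closest to Cep85l (r 0.92, rho 0.70) and to the mitochondrial carrier gene Slc25a30 (r 0.90, rho 0.75), and both r were raised by knockout 4 and 5. Slc25a30 was at 678 and 552 in those mice and at 119 to 305 in the other 13, and Cep85l at 1503 and 2118 against 635 to 912. Without them r was 0.44 for Cep85l and 0.62 for Slc25a30. Foxo3 was closest to Arfgef2, a vesicle traffic gene (r 0.96), and to Herc1, a gene of a giant HECT-type ubiquitin ligase (r 0.95), which held at 0.94 and 0.97 without control 1 and knockout 4.

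The remaining genes had these neighbours. Fbxo30 was most like Chmp3, an ESCRT gene (r 0.93), and Rassf8 (r 0.92). Fbxo21 was most like Stat5a (r 0.89) and the kinase gene Sik2 (r 0.86). Eda2r was most like Bcl2l11, which encodes the death protein BIM (r 0.85), and Lrrc2 (r 0.84). Gadd45a had the weakest neighbours, Cbx1 (r 0.82) and Zc3hc1 (r 0.81).

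**Figure D4:**
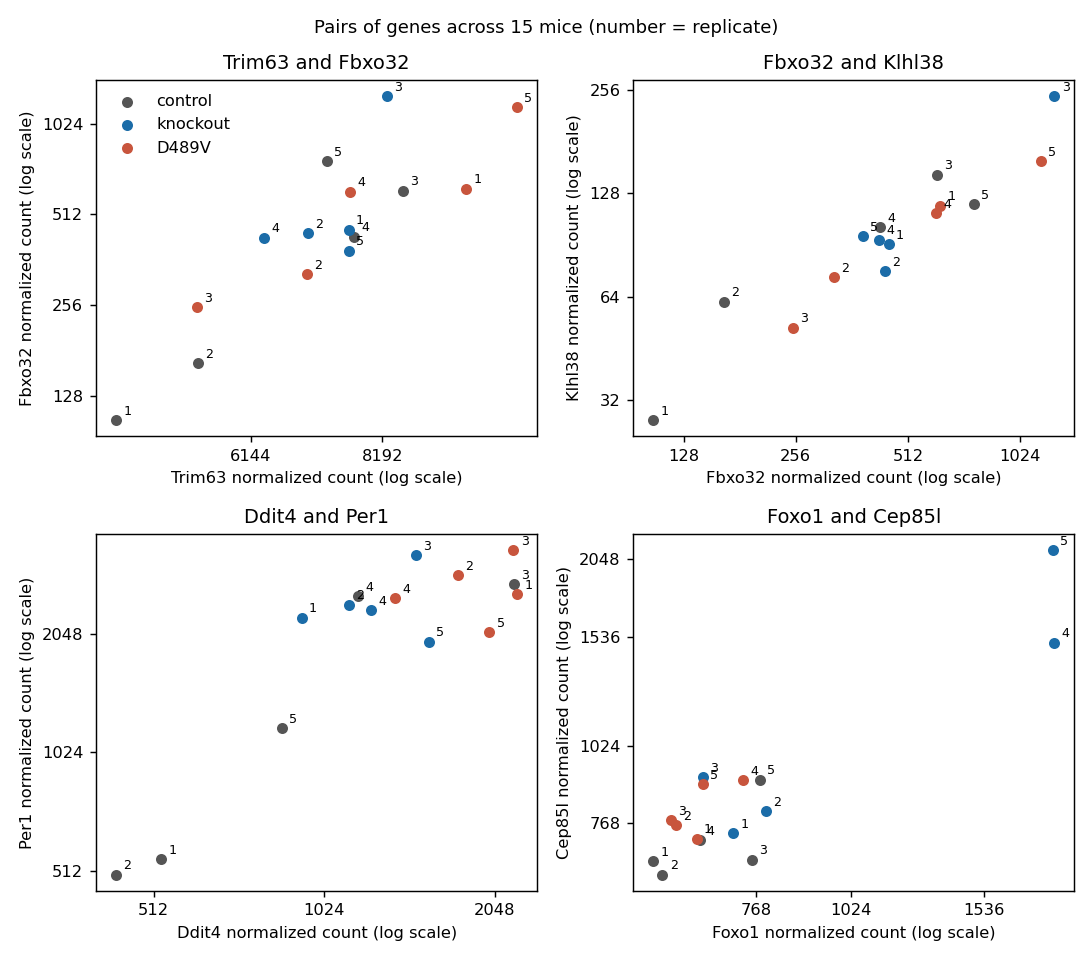
Normalized counts of 4 pairs of genes on log axes, each point a mouse numbered by replicate and coloured by group. Fbxo32 is higher where Trim63 and Klhl38 are higher, low Ddit4 and Per1 come from controls 1, 2 and 5, and high Foxo1 and Cep85l come from knockout 4 and 5 alone.

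Other genes of these pathways were read from 6 lists with 152 different genes, of which 148 or 149 were tested per comparison. In knockout against control 0 passed in limma, with 32 of 148 at an unadjusted p under 0.05, beside 15.1% of all genes. The median difference was 0.13 on the log2 scale beside 0.01 over all genes. In D489V against control also 0 passed, with 32 of 148 at an unadjusted p under 0.05, beside 9.43% of all genes, and a median of 0.02. In knockout against D489V 36 of 149 (24.2%) were called, 22 higher and 14 lower, beside 20.8% of all genes. With upper-quartile rescaling the split turned to 12 higher and 16 lower, and over all genes from 1599 higher and 1582 lower to 831 and 1697. The count was 15 without D489V 1, 17 without D489V 2 and 6 without knockout 3, 4 and 5, which keeps only knockout 1 and 2. All genes called fell as well in these settings, from 3181 to 1398, 1526 and 586.

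Among 26 other muscle ubiquitin ligase genes, 5 (19.2%) were called between knockout and D489V, beside 20.8% of all genes. All 5 were higher in knockout, while over all genes 1599 of the 3181 called were higher (10.5% of those tested). The list median was 0.20. The greatest differences were in Fbxl22, an F-box gene of the sarcomere (450 ± 95.6 in knockout, 272 ± 81.9 in D489V; 0.75 on the log2 scale), Fbxo40, whose product targets IRS1 (11331 ± 1728 and 7217 ± 1748; 0.67), and Trim55, which encodes MuRF2 (2701 to 3644 and 1384 to 2564; 0.62). The limma adjusted p were 0.0308, 0.0174 and 0.0201. Fbxo40 and Trim55 did not overlap between the groups, a separation shown by 13.9% of all genes tested. That share also stands beside each gene said below to be without overlap. Fbxl22 was lost without knockout 1, 2, 4 or 5 or D489V 1, 3 or 5 (adjusted p 0.0535, 0.0605, 0.0597, 0.0628, 0.0813, 0.0555 and 0.0549), and Trim55 without D489V 1 (0.0567) or D489V 2 (0.0503).

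Of 22 insulin, AKT and FoxO pathway genes, 4 were called higher and 1 lower in knockout than in D489V (22.7%, beside 20.8% of all genes). Foxo6, a further FoxO gene, was at 636 ± 134 in knockout and 309 ± 88.8 in D489V (2.08-fold, limma adjusted p 0.00854) with no overlap. Controls held 558 ± 148 of it. Igf1r, the IGF1 receptor gene, was lower in knockout, at 568 ± 57.3 against 874 ± 203 (-0.60, limma adjusted p 0.0190). Prkaa2, the AMPK catalytic subunit gene of muscle, was at 5726 ± 438 against 3984 ± 1298 (0.58, limma adjusted p 0.0469). That call was lost in 16 of 23 alternatives, including the omission of any knockout mouse or of D489V 1, 2 or 3 (adjusted p 0.0690, 0.0670, 0.0865, 0.0618, 0.0897, 0.117, 0.0957 and 0.0879).

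Of 33 FoxO target and autophagy genes, 5 were called higher and 4 lower (27.3%, beside 20.8% of all genes). Sesn3, a FoxO target that restrains mTORC1, was higher in knockout at 881 ± 148 against 523 ± 106 (0.76, limma adjusted p 0.00852), and so was the repressor gene Bcl6 at 2804 ± 711 against 1724 ± 139 (0.66, limma adjusted p 0.0183). Sesn3 was without overlap. Bcl6 was lost without D489V 2 (0.0504) and was 0.34 without knockout 3, 4 and 5 (0.221).

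Of 24 denervation and ATF4 genes tested, 2 were called higher and 6 lower in knockout (33.3%, beside 20.8% of all genes). The list median was -0.20. Musk, the receptor kinase gene of the neuromuscular junction, showed the greatest called difference of all pathway genes in this comparison, at 228 ± 115 against 69.8 ± 25.5 (1.60, limma adjusted p 0.0134). Without knockout 3, 4 and 5 it was 0.76 (adjusted p 0.174). Asns, the asparagine synthetase gene and a target of ATF4, was lower at 69.8 ± 13.3 against 170 ± 47.8 (-1.24, limma adjusted p 0.00564), and Gadd45g, a relative of Gadd45a, at 2171 ± 401 against 4488 ± 1144 (-1.03, limma adjusted p 0.00516), both without overlap. Gadd45a itself differed the other way, by 0.26, and did not pass.

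Of 26 REDD1 and mTORC1 genes, 3 were called higher and 2 lower in knockout (19.2%, beside 20.8% of all genes). The genes called lower were Mt1, a metallothionein, and Cebpd, a transcription factor. Mt1 was at 299 ± 111 against 746 ± 217 (-1.34, limma adjusted p 0.00593) and Cebpd at 574 ± 121 against 1136 ± 276 (-0.98, limma adjusted p 0.00593), both without overlap. Deptor, an mTOR inhibitor gene, was higher at 3445 ± 588 against 2130 ± 534 (0.72, limma adjusted p 0.0192), lost without D489V 1 (0.0510). Mt1 and Cebpd can be induced by glucocorticoids, as can other genes of the list that are named here after their values were seen. Of these, Fkbp5 differed by 0.52, Zbtb16 by 0.72, Tsc22d3 by 0.09, Klf9 by 0.10, Per1 by -0.13 and Mt2 by -1.001, and none passed (limma adjusted p 0.372, 0.158, 0.515, 0.475, 0.530 and 0.0553). Nr3c1, the glucocorticoid receptor gene, was called higher in knockout (0.42, limma adjusted p 0.0373).

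Of 22 EDA2R and noncanonical NF-kB genes tested, 3 were called higher and 2 lower in knockout (22.7%, beside 20.8% of all genes). Cdkn1a, the p53 target encoding p21, which the denervation list also holds, was at 1050 ± 279 against 2106 ± 802 (-0.96, limma adjusted p 0.0188), lost without D489V 1 (0.0529). Ccng1, another p53 target, was higher at 34953 ± 5980 against 22689 ± 4952 (0.64, limma adjusted p 0.0227), lost without knockout 5 (0.0512), D489V 1 (0.0614) or D489V 2 (0.0562). Osmr, the oncostatin M receptor gene, was lower at 239 ± 31.8 against 363 ± 16.3 (-0.61, limma adjusted p 0.00516) without overlap. Of the called pathway genes named by size of difference, only Foxo6, Sesn3, Mt1 and Cebpd passed in all 23 alternatives, and none changed sign in any.

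**Figure D5:**
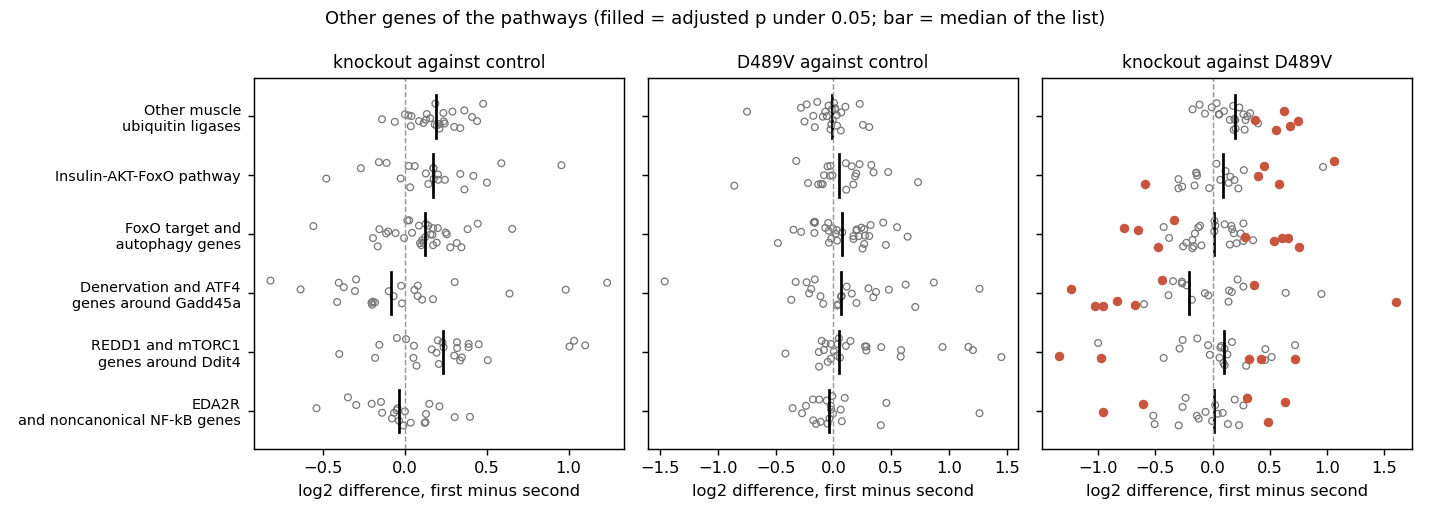
Log2 differences (x axis, first group minus second) of the tested genes of 6 pathway lists in the 3 comparisons; filled points passed an adjusted p of 0.05 and vertical bars mark list medians. Filled points appear only in knockout against D489V, on both sides of 0 in 5 lists and only above 0 for the other ubiquitin ligases.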

How the data were processed

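Poly(A) RNA of skeletal muscle from 15 mice was sequenced, with groups and replicate numbers from the labels. The authors deposited whole-number values that the table names call normalized counts, treated here as a score because they are no longer raw counts. The submitters' processing notes name Trim Galore 0.6.0, cutadapt, FastQC, STAR 2.7.0e, DESeq2 1.26.0 and GRCm38, without saying which step used which. The counting tool and strand setting are not given in the sources used here. Read depth per sample is unknown, so no counting intervals are given. Sums of normalized counts were 29815559 to 36489777.

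The 2 tables, with 55536 genes, were joined by gene identifier. Their 5 control columns are identical and the 15 columns share a scale (median ratios to the geometric mean of 1.0069 to 1.0097), so knockout and D489V were compared directly. Coordinates and exon lengths come from GENCODE M21 on GRCm38, and gene names that had turned into dates in 1 table (27) were taken from the other. For each comparison of 5 against 5 mice, limma 3.58.1 (R 4.3.3) was run (two-sided, eBayes with a variance trend) on log2(value + 1), leaving out genes that did not reach 10 in at least 5 of 10 samples. P-values were adjusted by Benjamini-Hochberg over all genes, with a threshold of 0.05. The added 1 understates differences of low genes. Exact two-sided permutation tests of 5 against 5 cannot give a p below 0.00794. Pair correlations used 100000 permutations (scipy 1.17.1). Centred values were permuted over all 15 mice without allowance for the group means removed, which makes their p-values somewhat too small. The fit was also run on simulated data, drawn gene by gene with the same spread in both groups. Such data lack the differences that libraries share over many genes, so that run cannot show how the calls depend on them.

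The text names the 9 genes, Pdgfrb, up to 3 called genes with the greatest difference per pathway list and comparison, and the 2 genes most correlated with each of the 9, besides marker genes that touch a result. Of the genes named by this rule, 1 is not reported here. The 9 genes and all lists were chosen with earlier results of these data known. Alternatives changed the pseudocount, filter, scaling, variance model, weights, samples in the fit and replicate block, and left out each mouse. Those leaving out control 5 and knockout 3, 4 and 5 (or the part of them in a comparison, with D489V 3) were chosen after seeing the data. The marker lists not named beside a result (mural, fibroblast, macrophage, tendon and satellite cell) had 4 of 9, 0 of 8, 0 of 7, 0 of 6 and 1 of 6 genes called in knockout against D489V, beside 20.8% of all genes. Of the mural genes called, Kcnj8, Cspg4 and Myh11 were lower in knockout and Abcc9 was higher. The part of mural cells in the results was not tested.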

Additional observations from a re-analysis of the deposited data

Results flagged for a closer look

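Each of the 9 genes was examined in each group of 5 mice for a lowest or highest mouse far from the rest, which gives 27 groups. In 2 of them the gap to the nearest mouse, on the log2 scale, exceeded 0.71 of the whole range of the group, where chance would give about 1.35. Fbxo32 in knockout 3 was the highest of its group, at 1267 against 388 to 455, a gap of 0.866 of the range. Knockout 3 is also the library with the Xist signal and with the highest slow fibre sum of the 15. Gadd45a in control 5 was the lowest of its group, at 717 against 1085 to 1204, a gap of 0.799 of the range. Control 5 also held the highest lymphocyte marker sum. Whether these properties bear on either value was not tested.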

How the results depend on the processing

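Of 621 recomputed differences of the 9 genes, 566 kept their direction and side of the threshold, 18 lost and 3 gained a call, and 34 changed sign, 25 of these on leaving out 1 mouse. The 2 calls in knockout against D489V became 1 with no filter, with upper-quartile rescaling, with eBayes without trend, with all 15 samples in the fit and without knockout 3, 4 and 5, and 0 without knockout 3 and D489V 3; leaving out 1 mouse gave 0 to 3, with 0 without D489V 1 or D489V 2. In both comparisons with control the count was 0 in all 23 alternatives. Pathway genes called in knockout against D489V numbered 15 to 47 on leaving out 1 mouse. They numbered 6 without knockout 3, 4 and 5, where all genes called fell to 586. In D489V against control the pathway genes called numbered 0 to 1 on leaving out 1 mouse, 2 with array weights and 1 with the replicate block. Correlated pairs numbered 3 to 9 on leaving out 1 mouse. Deviations of same-numbered mice from their group means had r of -0.367 to 0.346. No reference from differently numbered mice was taken, so these values cannot show whether the numbers pair the mice. With the replicate block 2 of the 9 genes and 30 pathway genes were called in knockout against D489V. For knockout or D489V against control 0 of the 9 genes were called with that block. Signs changed in small differences. In D489V against control Fbxo30 was -0.002 and Gadd45a -0.01 with array weights, Gadd45a -0.008 with quantile normalization and Foxo1 0.043 with upper-quartile rescaling, and without control 5 and D489V 3 Foxo1 was 0.056 and Gadd45a -0.054. In knockout against D489V Fbxo32 was -0.013 with upper-quartile rescaling, -0.523 without knockout 3 and D489V 3 and -0.195 without knockout 3, 4 and 5. Leaving out 1 mouse gave, in knockout against control, -0.202 to 0.071 for Fbxo21 and -0.272 to 0.172 for Eda2r; in D489V against control, -0.052 to 0.097 for Fbxo30, -0.089 to 0.027 for Foxo1, -0.066 to 0.107 for Foxo3, -0.129 to 0.076 for Gadd45a and -0.075 to 0.385 for Eda2r; and in knockout against D489V, -0.249 to 0.004 for Trim63, -0.266 to 0.341 for Fbxo32 and -0.409 to 0.001 for Eda2r. The cause was not tested. All genes called numbered 1 to 16, 1 to 86 and 586 to 4458 over the alternatives of the 3 comparisons. With upper-quartile rescaling the median difference of all genes was at most 0.0764 in size, in D489V against control, where it was 0.0019 without rescaling. Read depth is unknown, and the number of mice limits the precision to the printed intervals.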
